A study of Mus musculus with 12 samples.

Results

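The CpGs described here are those read far more often than the rest of the genome in reduced representation bisulfite libraries of dividing B cells: 1192 of the 760348 CpGs of the deposited table, with a median of at least 150 reads over the 12 libraries. They fell into 221 loci when CpGs within 500 bp of each other were joined, and 90 of these loci held a single CpG. They were chosen by read number alone, so their high coverage is a description, and methylation level was not used in the choice. The median read number of the members had quartiles of 177.5, 297.5 and 1229 reads and a highest value of 122407, while the other 759156 CpGs had quartiles of 31, 41.5 and 55 reads.

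The libraries came from B220+ CD43- splenic B cells of naive C57/BL6J donors, labelled with a dye that dilutes at each division, CFSE or CTV, and transferred into uMT hosts, which lack mature B cells of their own. The hosts were challenged with the bacterial product LPS and their spleens taken on day 3. The labels give every sample as female, 8 weeks old and of strain B6.SJL-Ptprca Pepcb/BoyJ, without saying whether this is the donor or the host. Cells were sorted into Div0 (undivided), Div1, Div3, Div5, Div8neg (8 or more divisions, without the plasma cell surface protein CD138) and Div8pos (8 or more divisions, with CD138). Each fraction was taken from host 196 and host 197, so n is 2 hosts for every fraction. Whether the donor cells of the 2 hosts came from separate mice is not stated. In promoters, the B cell marker genes with data (3 of 6 genes, 10 CpGs) had mean levels from 0% to 10.8% over the libraries, against 78.8% to 95.6% for the T cell markers (3 of 6 genes, 7 CpGs).

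The median coverage per CpG ran from 20 to 30 reads in 5 of the libraries of host 196, was 55 reads in its Div3 library and ran from 41 to 66 reads in those of host 197. The members took between 5.79% and 8.17% of all reads of a library. Reads were amplified by PCR and are not independent molecules, and CpGs on the same short read share their molecules, so neighbouring members are not separate measurements.

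In a bisulfite library an unmethylated cytosine is read as T and a methylated one as C, and the level of a CpG is the share of reads with C. Repeated DNA complicates both level and coverage. Ribosomal DNA, the tandem genes from which the large ribosomal RNAs are transcribed by RNA polymerase I, exists in many copies of which cells keep some methylated and silent. Major satellite DNA, a tandem repeat of the pericentromeric heterochromatin, is heavily methylated in somatic mouse cells and is kept so during replication by the maintenance methyltransferase Dnmt1. A genome assembly holds only fragments of such arrays, so reads from many copies are stacked on a few positions. A level there is an average over copies, and a read number depends on copy number, digestion, size selection, amplification and alignment together, which cannot be told apart here.

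Membership rests on read number and not on repeat annotation, and the copy number of the members was not examined. Of the 221 loci, 110 had no CpG with a median of 200 reads or more, and these held 232 members. The deposited symbols of the members comprised 128 genes, of which 76 had a promoter in the RefSeq table (build GRCm38.p6). At 6 loci the spacing of the CpGs placed them in a RefSeq promoter, since all table CpGs within its window, at least 8, fell on CpGs of that sequence. These 6 promoters had mean levels from 0% to 2.09% in Div0. The promoters of Pou2f1, Sdf4 and Gm24576 are shown because they are unmethylated CpG-rich promoters that crossed the limit. Capitals mark the CpGs that are members.
Pou2f1: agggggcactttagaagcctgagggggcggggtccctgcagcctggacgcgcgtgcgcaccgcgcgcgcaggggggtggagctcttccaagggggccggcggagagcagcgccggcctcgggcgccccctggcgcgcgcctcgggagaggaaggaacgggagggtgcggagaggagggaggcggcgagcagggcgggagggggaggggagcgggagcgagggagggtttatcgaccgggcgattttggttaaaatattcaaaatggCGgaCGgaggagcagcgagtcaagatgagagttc
Sdf4: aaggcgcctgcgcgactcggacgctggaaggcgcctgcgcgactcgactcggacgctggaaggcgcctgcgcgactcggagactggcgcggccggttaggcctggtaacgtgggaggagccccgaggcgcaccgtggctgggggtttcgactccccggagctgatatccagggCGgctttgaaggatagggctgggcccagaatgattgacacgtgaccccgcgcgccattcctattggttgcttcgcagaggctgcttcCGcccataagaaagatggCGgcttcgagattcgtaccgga
Gm24576: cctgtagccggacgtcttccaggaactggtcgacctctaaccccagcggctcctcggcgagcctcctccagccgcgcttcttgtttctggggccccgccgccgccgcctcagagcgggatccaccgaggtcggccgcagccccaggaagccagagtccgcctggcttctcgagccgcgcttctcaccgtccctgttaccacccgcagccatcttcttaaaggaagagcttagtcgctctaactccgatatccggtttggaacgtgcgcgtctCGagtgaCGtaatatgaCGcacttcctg

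The sequences are those of RefSeq on GRCm38.p6, chr1:166002585-166002884 on the minus strand for Pou2f1, which encodes the octamer-binding factor Oct-1, chr4:155992903-155993202 on the plus strand for Sdf4, which encodes a calcium-binding protein of the Golgi, and chr7:15945843-15946142 on the plus strand for Gm24576, whose CpGs the files assign to Gltscr2. Their members had mean levels of 1.74% ± 1.17 (Pou2f1, 2 CpGs), 2.09% ± 0.842 (Sdf4, 3 CpGs) and 1.18% ± 0.192 (Gm24576, 3 CpGs) in Div0 (SD, n = 2). Their relative coverage, the reads at a CpG over the median of its library, stayed between 2.39 and 5.06 in all libraries. The enzymes used, MspI and TaqI, cut at CCGG and TCGA, which read the same on both strands, and the marked CpGs lay from 0 to 35 bp from the nearest such site. Of the 32851 RefSeq promoters of this length, 52.8% hold CCGG and 22.0% hold TCGA. The limit passed through the Pou2f1 promoter itself: its CpGs at chr1:167932744 and chr1:167932748 (mm9, as all positions from here on) had a median of 150 reads and were inside, and the one at chr1:167932775 had 149.5 reads and was outside. In all, 19 members at 11 loci had a median of exactly 150 reads, with Div0 levels from 0.581% to 97.1% (median 35.1%), and 8 CpGs had 149.5 reads, with Div0 levels from 1.36% to 97.8% (median 34.7%).

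The members were intergenic more often than the table as a whole (61.7% against 32.3% of CpGs) and in introns or exons less often (14.9% and 2.60%, against 30.4% and 12.4%). No symbol was given for 558 of them. Their levels were spread differently from the usual split into unmethylated and methylated CpGs: in Div0, 36.3% of the members and 9.11% of the other CpGs lay between 20% and 80%. Among the 316 members with 1000 reads or more this share was 54.8%. The members were therefore described in 7 groups by position.

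Of the 6 groups at 1 place each, the one with the most members was an rDNA-like block of 351 on chr17:39979946-39985654. The files give no symbol there. In RefSeq (GRCm38.p6) 8 genes lie between the same flanking genes, Esp23 and Pgk2, among them Rn18s-rs5, a pseudogene related to 18S ribosomal RNA. The others are Gm18784, Esp18, Esp16, Esp15, AY036118, Esp38 and Tgif2-ps2, and gene order alone does not place the block on any of the 8. Another 3 groups were satellite-like arrays in intergenic sequence. The first held 55 members on chr2:98502421-98507482 and is named by its nearest symbol, Lrrc4c, a gene for a synaptic adhesion protein. The start site of Lrrc4c was 1199492 bp from the most covered CpG of the array. A further 88 members lay at the start of the assembled chromosome 9 (chr9:3000031-3036836). The last array, 7 members on chr9:35112885-35113167, is named by Rpusd4, a gene for a mitochondrial pseudouridine synthase. Its start site was 37552 bp from their most covered CpG. Of the 2003 pairs of CpGs more than 20 and under 1000 bp apart at the start of chromosome 9, 57 were exactly 234 bp apart and 28 were 468 bp apart, counted over all 254 table CpGs there, and 234 bp, the unit length of mouse major satellite, was the most frequent distance there. It was also the most frequent at Rpusd4, with 3 of 65 pairs. At Lrrc4c it was found in 9 of 927 pairs, against 10 for the most frequent distances, 251 and 485 bp, so spacing alone did not single it out there. The fifth group was 134 members at Mid1 on the X chromosome, a ubiquitin ligase gene that crosses the pseudoautosomal boundary of C57BL/6 mice, the sixth was 28 members on the mitochondrial genome, and the remaining 529 were scattered over 181 loci.

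**Figure D1:**
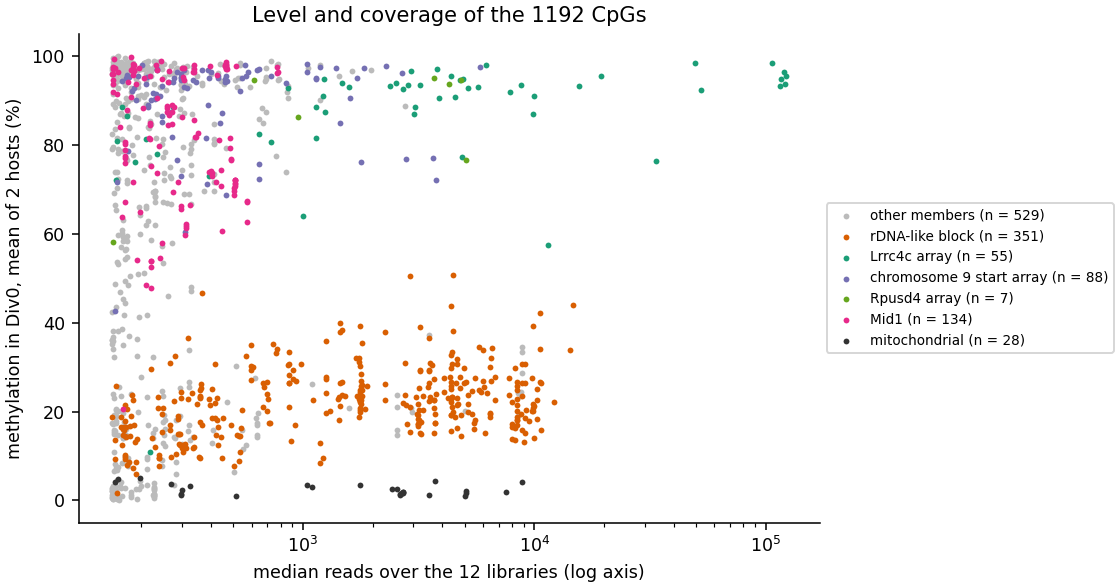
Each point is 1 of the 1192 members, with its median reads over the 12 libraries on a log axis and its mean methylation in Div0 over 2 hosts in percent, coloured by group. The arrays lie near the top, the rDNA-like block between about 1.56% and 50.7%, and the mitochondrial CpGs near 0 at all coverages.

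Over all members the mean level in Div8pos was 50.2% in host 196 and 48.5% in host 197, against 53.9% and 54.1% in Div0, a difference of -4.62 ± 1.31 points (SD of the 2 host differences). The mean in Div8neg was 52.7% and 51.7%, which was -1.77 ± 0.843 points from Div0. For Div1, Div3 and Div5 the differences from Div0 were -0.34, 0.040 and -0.19 points, each smaller than its SD. These means weigh every CpG alike. By summed reads, where the most covered CpGs weigh most, the differences from Div0 were -4.69 for Div1, -5.06 for Div3, -2.14 for Div5, -5.57 for Div8neg and -10.96 ± 2.69 points for Div8pos. Summed reads also move when reads shift between groups of unlike level, without a change of level. Within the Lrrc4c array, described below, they gave 93.7% and 93.6% in Div0 and 93.55% and 93.1% in Div1. Within the rDNA-like block they gave 23.5% and 23.8%, then 23.15% and 24.1%. The median relative coverage of the Lrrc4c array was 78.3 in Div0 and 52.8 in Div1. The other CpGs of the table differed by -6.11 ± 0.205 points in Div8pos and -2.86 ± 0.172 points in Div8neg with equal weight, and by -8.27 ± 1.61 and -5.85 ± 0.655 points by summed reads, so the order of the members and the rest in Div8pos turned with the weighting. The groups of members took different courses over the fractions.

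**Figure D2:**
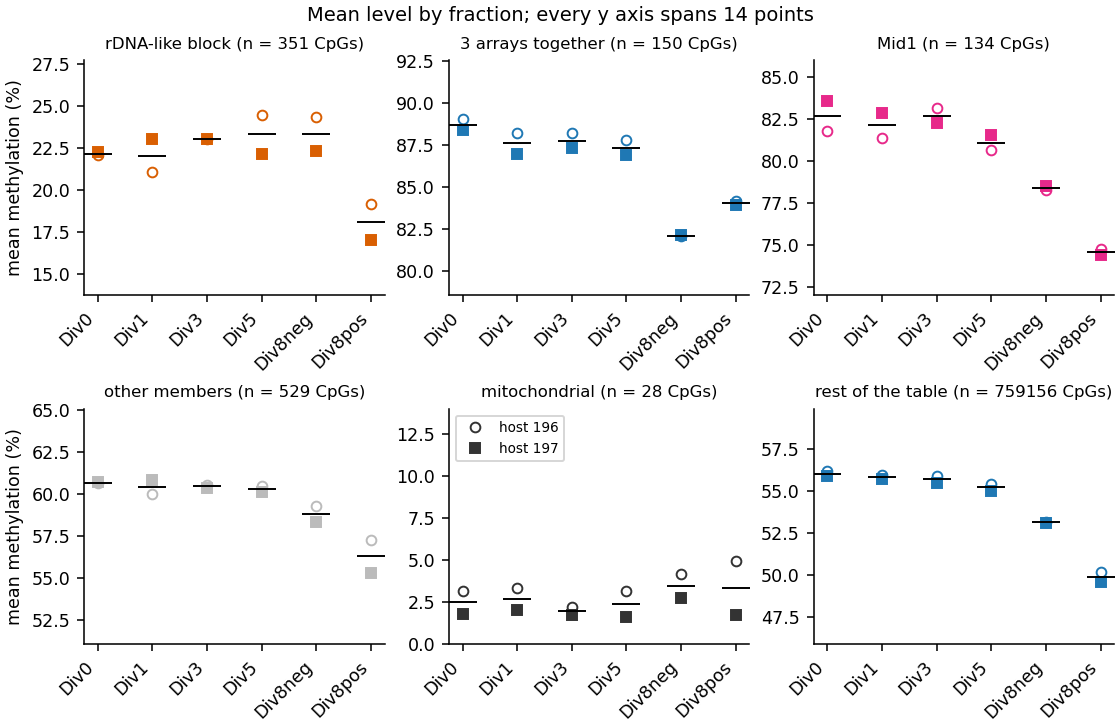
Mean methylation in percent (y axis) by fraction (x axis) for 5 groups of members, with the 3 arrays joined, and for the rest of the table. Open circles are host 196, filled squares host 197 and black bars their mean, and every y axis spans 14 points. The block stands at 22.2% in Div0, 23.3% in Div8neg and 18.1% in Div8pos, while the arrays are lowest in Div8neg.

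The rDNA-like block was lower in Div8pos than in any other fraction. Its mean level was 22.1% and 22.3% in Div0, 21.1% and 23.0% in Div1, 23.0% and 23.0% in Div3, 24.5% and 22.2% in Div5, 24.3% and 22.3% in Div8neg, and 19.2% and 16.99% in Div8pos (host 196, then host 197 each time). Both Div8pos libraries lay below all 10 others. In single CpGs, 210 of the 351 fell in Div8pos against Div0 and 0 rose, at an adjusted p under 0.05 from the quasi-binomial test with Benjamini-Hochberg adjustment over all 760348 CpGs. By this rule, which sets no minimum size, 16.6% of all CpGs were lower and 0.123% higher, but a CpG with few reads needs a larger difference to pass than one with many, so the members' share cannot be read against it. The median difference over the block was -4.93 points and its largest fall -13.4 points. The largest difference upwards, 22.7 points at chr17:39984443, did not pass the test (adjusted p = 0.494) and came from 1 host, with 57.4% in host 196 and 13% in host 197 in Div8pos, against 10.8% and 14.1% in Div0.

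Set against Div8neg, cells also of 8 or more divisions but without CD138, 193 of the 351 were lower in Div8pos and 0 higher (0.897% and 0.0154% of all CpGs). The median difference was -6.27 points, and 291 of the 351 were lower in both hosts. Div8neg itself was not lower than Div0: 2 CpGs fell and 11 rose (1.23% and 0.0775% of all CpGs), with a median difference of 1.02 points. These counts rest on host 197, whose libraries were deeper. Without its Div0 library 96 CpGs fell in Div8pos against Div0 and without its Div8pos library 138. Against Div8neg they were 84 without the Div8neg and 100 without the Div8pos library of host 197, and the 11 rises in Div8neg were 0 without either its Div8neg or its Div0 library.

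Members fell along the whole length of the block, but not every CpG of it did, as given below. In windows of 1000 bp from its first CpG, the median difference between Div8pos and Div0 was -5.15, -5.80, -4.76, -4.32, -5.26 and -4.18 points, and between 24 and 43 CpGs of each window fell. The most covered CpG of the block, chr17:39984395 with a median of 14636 reads, had 35.0% and 33.1% methylation in Div8pos, against 43.6% and 44.2% in Div0, and 40.5% and 39.6% in Div8neg. Its difference was -9.87 points from Div0 (adjusted p = 1.7e-07) and -6.01 points from Div8neg (adjusted p = 0.00054), both by the quasi-binomial test. Its relative coverage was 299 and 320 in Div8pos, against 333 and 307 in Div0, so the level differed while the coverage did not move beyond the spread between hosts. Div8neg was above Div0 at chr17:39981112, an annotated exon: 30.5% and 30.6% in Div8neg, against 22.0% and 22.9% in Div0, with 18.6% and 18.2% in Div8pos. It was 8.04 points higher in Div8neg than in Div0 (adjusted p = 0.0023), where its relative coverage was also higher, with 60.1 and 60.3 in Div8neg, against 30.4 and 41.5 in Div0.

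**Figure D3:**
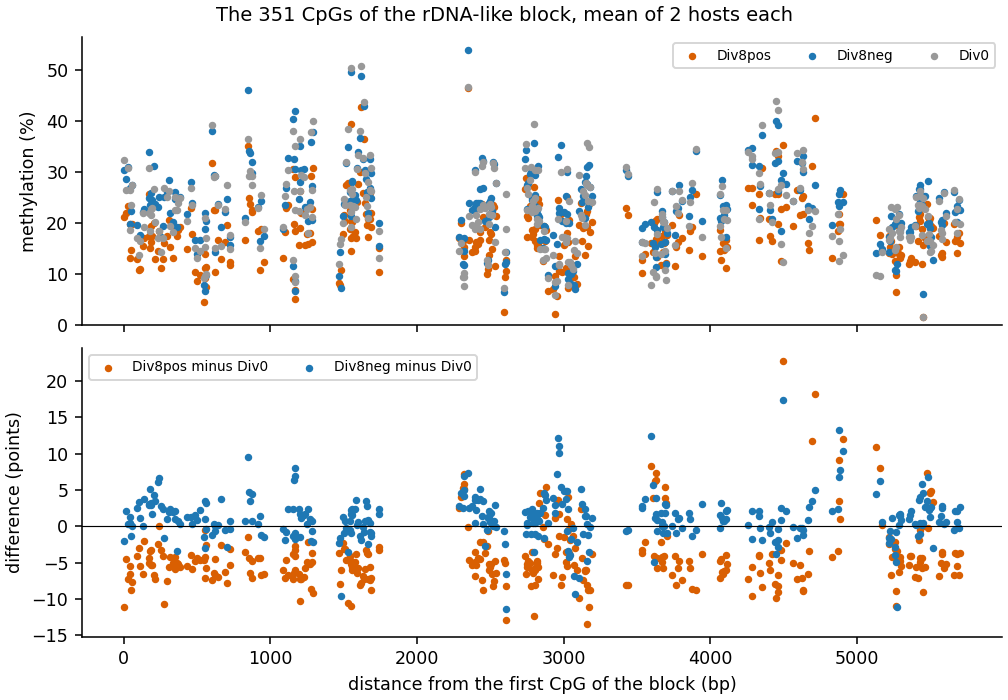
The 351 members of the rDNA-like block along their distance in bp from the first CpG, with the level of each CpG in percent in Div8pos, Div8neg and Div0 above and the differences from Div0 in points below, each the mean of 2 hosts. Most Div8pos differences lie around the median of -4.93 points along the whole length, while those of Div8neg lie around 1.02 points.

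Coverage split the block. At 61 of its CpGs the coverage in Div8pos over Div0, on the log2 scale of the edgeR fit, was between -1.92 and -0.96, and at the other 290 between -0.58 and 0.48. A limit of -0.9 between them was set after these values were seen. The 61 CpGs had a median relative coverage of 21.2, 22.8, 12.3, 2, 2.18 and 1.40 in Div0, Div1, Div3, Div5, Div8neg and Div8pos of host 196, against 5.94, 3.38, 4.58, 3.86, 22.0 and 7.58 in host 197. High values thus occurred in Div0 and Div1 of one host and in Div8neg of the other, and no fraction was high in both. These coverages followed the library and not the fraction. Of the 61, 4 fell in Div8pos against Div0, while of the other 290, 206 fell, and all 193 that were lower in Div8pos than in Div8neg were among the 290. The 61 had a median of 300.5 reads and the 290 of 3156, so a fall was harder to detect in the 61, and the median differences were -2.46 and -5.19 points. The 290 CpGs had a median relative coverage between 54.1 and 82.3 in all libraries, and their mean level was 19.3% and 18.2% in Div8pos, 25.2% and 24.4% in Div8neg and 23.4% and 23.7% in Div0. A further 148 CpGs of the block were under the limit of 150 reads. Their median difference was -0.25 points between Div8pos and Div0, with 0 falls and 0 rises by the same test, at a median of 56.8 reads. Their mean level was 37.5% in host 196 and 28.2% in host 197 in Div8pos, and 35.5% and 27.0% in Div8neg, against 30.7% and 33.2% in Div0, so the hosts ran in opposite directions. Between Div8pos and Div8neg their median difference was 1.58 points, with 0 lower and 2 higher, and 4 were lower in Div8neg than in Div0.

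A spacing of CpGs like that of part of the block was found elsewhere, at the best of all offsets in either orientation. The sequences were not compared. The 16 members at chr6:3151209-3151495, assigned to the predicted gene Gm8579, were spaced like the block, with 15 of the 16 falling on block CpGs when laid on chr17:39984065-39984351. At the other 22 loci with 8 or more members outside the block, between 29.0% and 70.0% of the CpGs could be laid on it. The Gm8579 CpGs had a mean level of 40.6% and 33.9% in Div8pos, against 33.4% and 37.9% in Div0. By the adjusted p alone 7 of the 16 fell (16.6% of all CpGs). The hosts disagreed in direction over the 16, and the share of reads from the block itself cannot be told apart there.

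The satellite-like arrays took another course. Together the 150 array members had mean levels of 89.0% and 88.4% in Div0, 87.8% and 86.9% in Div5, 82.1% and 82.2% in Div8neg and 84.2% and 83.9% in Div8pos. The Div8neg libraries were the lowest and did not overlap with those of Div8pos, and both were below all libraries of Div0 to Div5. At an adjusted p under 0.05, 75 of the 150 fell in Div8neg and 0 rose (1.23% and 0.0775% of all CpGs), with a median of -6.07 points. In Div8pos 79 fell and 0 rose (16.6% and 0.123% of all CpGs), with a median of -4.27 points. Compared directly, 24 were higher and 5 lower in Div8pos than in Div8neg (0.0154% and 0.897% of all CpGs), with a median of 1.15 points. A smaller difference passes where reads are many, so the arrays' shares cannot be read against those of all CpGs. The mean difference was 1.92 ± 0.219 points. Without Div0 of host 197 the falls were 34 in Div8neg and 36 in Div8pos. Without Div8neg of host 197 there were 45 falls in Div8neg against Div0 and 8 CpGs higher in Div8pos than in Div8neg, and without Div8pos of host 197 there were 36 falls in Div8pos and 5 such higher CpGs. In 91 of the 150 members the lowest of the 6 fraction means was that of Div8neg and in 53 that of Div8pos, whereas in the rDNA-like block it was Div8neg in 11 and Div8pos in 282 of 351.

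The most covered CpG of the whole table, chr2:98507324 in the Lrrc4c array, had a median of 122407 reads and shows the size of these changes at high depth. It was methylated at 91.3% and 91.0% in Div8pos, against 95.7% and 95.2% in Div0 (-4.29 points, adjusted p = 4.3e-08, quasi-binomial test). In Div8neg it was at 89.6% and 89.3%, which was -6.00 points from Div0 (adjusted p = 2.5e-08), and Div8pos was 1.71 points above Div8neg (adjusted p = 0.035). The spread behind these p values was moderated towards that of members with far fewer reads. They can therefore understate the spread between hosts at this depth. At chr9:35113107, in the Rpusd4 array, Div8neg was at 79.5% and 78.2%, against 93.8% and 93.7% in Div0, and Div8pos at 89.2% and 90.0%. Div8pos was 10.7 points above Div8neg (adjusted p = 1.1e-07), with no overlap between the fractions. Its relative coverage was 169 and 211 in Div8neg, 51.2 and 108 in Div8pos and 112 and 108 in Div0. The largest array fall in Div8neg was at the neighbouring chr9:35113119, with 69.8% and 65.4% in Div8neg, against 88.5% and 83.8% in Div0 (-18.5 points, adjusted p = 0.00013). There the relative coverage was higher too, with 105 and 131 in Div8neg, against 29.5 and 19.8 in Div0, and its part in the level was not tested. At the chromosome 9 start, chr9:3024107 was at 70.0% and 71.1% in Div8neg, against 89.0% and 88.9% in Div0 (-18.4 points, adjusted p = 0.0064). The Div8pos libraries lay between, at 74.3% and 85%, and the relative coverage was 10.8 and 13.4 in Div8neg, against 6.80 and 4.52 in Div0. No array CpG reached a difference of 20 points.

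Read number moved with the fraction mainly in the arrays. Members were chosen by their reads in all libraries, those of Div8neg included, so a CpG near the limit could be a member because its coverage in Div8neg was high, and the counts of members are a description. Coverage was tested with edgeR on the reads relative to the library median, and a CpG was called at an adjusted p under 0.05 and at least 1.5-fold. In Div8neg against Div0, 36 members had higher and 0 lower coverage (166 lower at an unadjusted p under 0.05, and 1 called lower by limma), when 0.0166% of all CpGs were called higher and 0.000395% lower. Of the 36, 33 lay in the 3 arrays, and the other 3 were 2 CpGs in an intron of Chl1, a neural adhesion gene, and 1 at Ly6c2. The 36 ran from 1.26 to 3.24 on the log2 scale. When CpGs were chosen on a median of 150 reads over the 8 libraries outside both fractions, which was added after seeing the data, 34 of 1878 were called higher and 0 lower, and 33 of the 34 were members. Over the 10 libraries outside Div8neg, 28 of 1696 were called higher, all of them members, and 0 lower. All 36 were also among the 59 members lower in Div8pos than in Div8neg (0.0241% of all CpGs), with 0 members higher and 12 at an unadjusted p under 0.05. In Div8pos against Div0, 0 members were called either way and so were 0% of all CpGs. At an unadjusted p under 0.05, 245 members were lower and 11 higher by edgeR, and limma on log2 relative coverage also called 0, with 298 lower and 14 higher unadjusted. Single libraries mattered: the 36 rises were 17 without Div0 of host 197, 22 without Div8neg of host 197 and 57 without Div8pos of host 197. Members lower in Div8neg than in Div0 were 19 without Div8pos of host 197, 17 without that of host 196, and 7 and 5 without Div1 of host 196 and of host 197. Members lower in Div8pos than in Div0 were 7 without Div8pos of host 197, and 1 was higher in Div8pos than in Div8neg without Div8pos of host 196.

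At chr2:98505220 the relative coverage was 18.5 and 22.2 in Div8neg, against 2.50 and 1.92 in Div0, and 1.90 and 2.11 in Div8pos. Div1, Div3 and Div5 had 2.70 and 2.94, 4.82 and 2.92, and 5.70 and 6.60. Both Div8neg libraries were above all 10 others. Its median was 156 reads over the libraries outside both fractions as well, but 123.5 reads over the 10 libraries outside Div8neg, so with those it would not have been a member. The level did not follow, with 72.7% and 70.4% in Div8neg, against 74.0% and 70.0% in Div0. At chr6:103599161 in Chl1, with a median of 192 reads over the 8 libraries and 155 over the 10, the relative coverage was 18.2 and 24.0 in Div8neg, against 3.45 and 2.94 in Div0 and 2.47 and 2.86 in Div8pos. At chr9:3001511, with medians of 167.5 and 141 reads over the same libraries, the values were 22.3 and 36.5 in Div8neg, against 4.30 and 2.85 in Div0.

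Coverage in Div8neg over Div0 was uneven within an array. In the Lrrc4c array the median log2 fold of coverage in Div8neg over Div0 was 2.76 for the 14 CpGs with under 1000 reads, 0.98 for the 29 with 1000 to 10000 and -0.12 for the 12 with 10000 or more. The calls were 14, 10 and 0, and the log2 folds of the 12 ran from -0.67 to 0.63. Classes set by the 8 libraries outside both fractions gave the same numbers and medians, while by the 10 libraries outside Div8neg 4 of the 55 CpGs were under 150 reads, all 4 called. At the start of chromosome 9 it was -0.21 for the 71 CpGs with under 1000 reads and -0.71 for the 17 with more, from -1.32 to 3.09 over all. Of the 166 CpGs there under the limit of 150 reads, 62 were called higher. The CpGs of an array thus did not share 1 ratio of coverage, and a change in copy number cannot be told apart from one in digestion, size selection, amplification or alignment. In Div8pos over Div0 the log2 folds of all 150 array CpGs lay between -1.08 and -0.01, all below 0, but the hosts differed. The median relative coverage of the 150 was 9.2 in Div8pos against 21.3 in Div0 in host 196, and 14.17 against 16.25 in host 197. In the Rpusd4 array of host 197 it was 98.3 in Div8pos against 94.9 in Div0, so it was not lower there. The median level difference in Div8neg against Div0 was -6.65, -7.65 and -4.31 points in the 3 coverage classes of the Lrrc4c array, and the part of coverage in it was not tested.

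**Figure D4:**
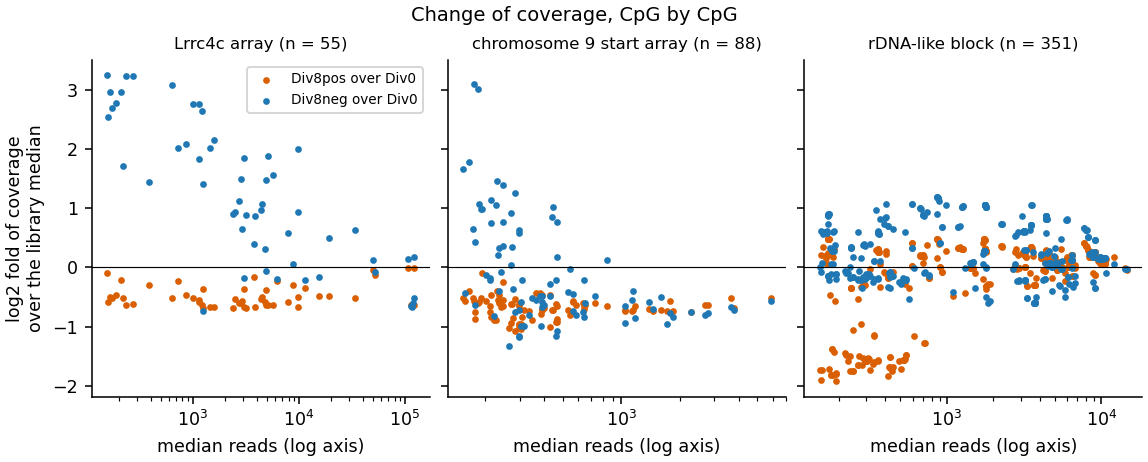
Log2 fold of coverage over the library median (y axis) against median reads on a log axis (x axis), 1 point per CpG of the Lrrc4c array, the chromosome 9 start array and the rDNA-like block, for Div8pos over Div0 and Div8neg over Div0. In the Lrrc4c array the Div8neg values reach 3.24 at low read numbers and lie near 0 at the highest. In the block 61 CpGs with Div8pos values from -1.92 to -0.96 stand apart from the rest.

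Called differences of 20 points were found mainly at Mid1. Over all members, 24 fell by at least 20 points with an adjusted p under 0.05 in Div8pos against Div0 and 0 rose, 8 fell and 0 rose in Div8neg, and 1 was lower and 0 higher in Div8pos than in Div8neg. By size alone 3 members were higher by 20 points or more in Div8pos than in Div0, 2 at Cmss1 and 1 in the rDNA-like block, with adjusted p from 0.418 to 0.494 by the quasi-binomial test. The shares of all CpGs called by this rule were 6.63% lower and 0.0271% higher in Div8pos, 0.783% and 0.0395% in Div8neg, and 0.637% and 0.00723% between the 2. The members' 24 are 2.01% of them. CpGs with a Div0 level under 20% could not fall so far. They were 306 of the members (25.7%) and 38.6% of the other CpGs. Among members with a Div0 level from 20% to 80%, 3.93% of 433 were called lower in Div8pos, and among those of 80% or more 1.55% of 453, against 14.2% and 10.2% of the other CpGs. The rDNA-like block, with a largest fall of 13.4 points, held 0 of these calls, and so did the 3 arrays. The other CpGs had fewer reads, so their differences were noisier, and the shares cannot be compared directly. Div5 had 2 called members, both lower (0.124% of all CpGs lower, 0.00513% higher). Div3 had 0 (0.0267% and 0.00105%), with 42 lower and 38 higher at an unadjusted p under 0.05 by the same test and 0 by limma. Div1 had 0 (0% each way), with 48 lower and 12 higher unadjusted and 0 by limma.

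Of the 24 members lower in Div8pos, 13 were at Mid1, as were all 8 lower in Div8neg, both lower in Div5 and the 1 lower in Div8pos than in Div8neg. Over its 134 members Mid1 had a mean level of 74.8% and 74.4% in Div8pos, against 81.8% and 83.6% in Div0, and 78.3% and 78.5% in Div8neg. At adjusted p alone, 55 of the 134 fell in Div8pos and 12 in Div8neg, with none rising in either. By that rule 16.6% of all CpGs, most with fewer reads, were lower in Div8pos and 1.23% in Div8neg. The called CpGs lay in 2 spots at the ends of the stretch, in the promoter from chrX:166417000 to chrX:166417467 and in intergenic sequence from chrX:166436062 to chrX:166436337. At chrX:166436195 the level was 70.9% and 68.1% in Div0, 74.8% and 72.5% in Div1, 70.4% and 69.1% in Div3, 57.5% and 54.1% in Div5, 20.8% and 29.4% in Div8neg and 22.1% and 21.4% in Div8pos. Against Div0 the difference was -47.7 points in Div8pos (adjusted p = 2.4e-07) and -44.4 points in Div8neg (adjusted p = 1.9e-05), and the ranges of these fractions overlapped. In the promoter, chrX:166417000, 150 bp upstream of the start site, was at 62.0% and 70.9% in Div0, 55.7% and 53.1% in Div3, 46.8% and 40.5% in Div5, 30.3% and 20.8% in Div8neg and 17.6% and 22.5% in Div8pos. It was lower in Div5 already (-22.8 points, adjusted p = 0.016 by the quasi-binomial test), but not past the limit by limma on percent levels (adjusted p = 0.208). The call in Div5, and that of chrX:166417010 beside it, was lost without Div0 or Div5 of host 197.

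A different course was seen at chrX:166436062, in the same spot. It was at 24.7% and 23.6% in Div8pos, against 47.3% and 54.6% in Div8neg (-26.8 points, adjusted p = 0.0018), and at 42.7% and 52.9% in Div0. This call was lost without Div8neg of host 197, and 3 members were called without Div8pos of host 196. Much of the stretch between the spots was highly methylated: the 19 promoter-annotated members at chrX:166426628-166427109 averaged 93.3% ± 0.15 in Div8pos, against 97.1% ± 0.021 in Div0, and the 17 at chrX:166422527-166423286 averaged 90.4% ± 0.82, against 93.8% ± 0.0044 (SD, n = 2 each). The relative coverage of Mid1 had a median between 5.82 and 6.90 in every library, with 0 coverage calls in any of the 3 comparisons.

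**Figure D5:**
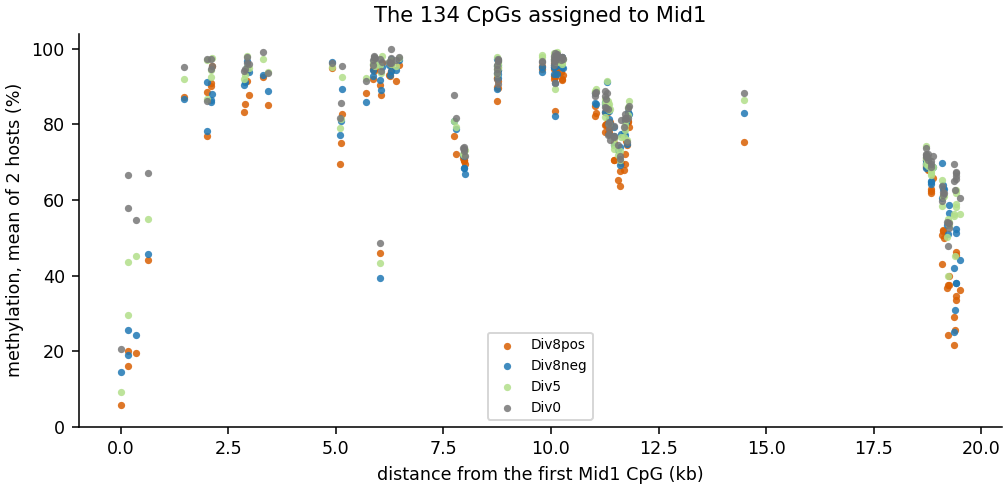
Methylation in percent (y axis, mean of 2 hosts) of the 134 members assigned to Mid1, by distance in kb from the first of them (x axis), in Div8pos, Div8neg, Div5 and Div0. The low spots are at the 2 ends of the stretch, where chrX:166436195 stands at 21.7% in Div8pos, 25.1% in Div8neg, 55.8% in Div5 and 69.5% in Div0.

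Mitochondrial DNA is largely unmethylated in mammalian cells. The 28 members had mean levels of 3.18% and 1.81% in Div0 and between 1.60% and 4.92% over all libraries. Host 196 was above host 197 in every fraction. None fell or rose in the 3 comparisons by the adjusted p, with 0 lower and 0 higher unadjusted in Div8pos and Div8neg against Div0 and 1 lower in Div8pos against Div8neg. Their median relative coverage was 55.3 and 102.8 in Div8pos, against 82.9 and 69.6 in Div0, a spread between hosts larger than the difference.

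The 529 scattered members had a mean of 57.3% and 55.3% in Div8pos, against 60.6% and 60.7% in Div0. By adjusted p alone 169 fell and 0 rose (16.6% and 0.123% of all CpGs, most with fewer reads). Of the 529, 11 were lower by at least 20 points (6.63% of all CpGs). The largest was at chr8:19919341, an intergenic CpG with 41.3% and 50.7% in Div8pos, against 77.95% and 80.7% in Div0 (-33.4 points, adjusted p = 1.5e-06), and 65.5% and 65.95% in Div8neg. An intron of Sp140, a gene for a nuclear body protein, held 2 of them. At chr1:87507803 the level was 64.2% and 53.4% in Div8pos, against 90.5% and 92.0% in Div0 (-32.5 points, adjusted p = 5.1e-05). Sfi1, a centrin-binding protein gene with several copies in mouse, was lower at chr11:3073761 with 56.0% and 55.3% in Div8pos, against 77.6% and 77.1% in Div0 (-21.7 points, adjusted p = 2.7e-06). The others lay in an intron of Vps33a, in an exon of Ugt1a10, at chr14:70007250 in a promoter without a symbol, and in intergenic sequence. The intergenic ones were chr8:111818004, without a symbol, and CpGs whose nearest symbols were Trhr, 4932411N23Rik and Gpm6a. The start sites of these genes were at distances of -117527, 47214 and 168854 bp. The differences of these other CpGs ran from -28.7 to -20.1 points. All 24 called members, Mid1 included, were lower in both hosts.

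The lists of gene families given here had negative medians. The 48 members at segmentally duplicated or multicopy genes (Sfi1, Speer4a, Speer7-ps1, Speer8-ps1, H2-Q6 and Snord116) had a median difference of -6.19 points in Div8pos against Div0, with 20 falls by adjusted p. By that rule 43.0% of all members and 16.6% of the other CpGs fell. The 11 at odorant and vomeronasal receptor genes had -6.49 points with 4 falls, the 8 at Zfp genes -6.78 points with 7 falls, the 88 at predicted or Rik genes -3.07 points with 29 falls and the 13 on random contigs -5.56 points with 6 falls. The 149 members of the sex chromosome list, of which 146 lay on the X chromosome and 134 at Mid1, had a median of -5.75 points with 66 falls. Of the list of ribosomal RNA names only Rn4.5s was present, with 6 CpGs at -7.60 points and 2 falls. It entered by its name alone and is not counted here as a ribosomal RNA gene. None of the imprinted gene or immunoglobulin symbols of the lists was among the members, although Snord116, counted above, lies in an imprinted cluster. Over all members the median was -4.38 points and over the other CpGs -3.73 points. The mitochondrial list, described above, had 0.13 points in Div8pos and 0.42 points in Div8neg against Div0. In Div8neg against Div0 the medians of the other lists were closer to 0 than in Div8pos, from -4.03 points at Rn4.5s to -1.03 points at predicted or Rik genes.

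At some loci with many members no CpG fell. Hjurp, which encodes the chaperone of the centromeric histone Cenpa, had 13 promoter members at 1.85% ± 0.0031 in Div8pos, against 1.93% ± 0.64 in Div0. The 18 at Gm7120 were at 71.6% ± 2.1 in Div8pos, against 73.0% ± 0.13, and the 10 in the 3′ UTR of Lars2, a mitochondrial leucyl-tRNA synthetase gene, at 57.7% ± 3.7, against 56.9% ± 0.064, with 0 falls at any of the 3 loci (SD, n = 2). The 22 in an intron of Cdk8, a Mediator kinase gene, were at 19.1% ± 3.0, against 21.3% ± 1.4, with 10 falls. Among the loci with the highest coverage, the 2 members in an intron of the pseudogene Pisd-ps1 were at 86.1% ± 1.4 in Div8pos and 90.6% ± 1.9 in Div8neg, against 94.7% ± 0.76 in Div0, and both fell in Div8pos. The single member in an intron of Ifi205, an interferon-inducible gene, was at 90.4% ± 1.3 in Div8pos, against 96.5% ± 0.63.

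At Cmss1 the level moved with the coverage of the library. The 10 members in its intron had 44.6% and 24.3% in Div8pos, 37.7% and 19.3% in Div8neg, 41.2% and 34.8% in Div5 and 22.2% and 27.6% in Div0 (host 196, then host 197). Their relative coverage in the same order was 1.60 and 3.57, 1.77 and 9.90, 1.57 and 3.23, and 10.4 and 3.27. The 3 libraries with the highest levels had the 3 lowest coverages, and none of the 10 CpGs fell or rose in any of the 3 comparisons by the adjusted p. Their coverage was highest in Div1 and Div0 of host 196 and Div8neg of host 197, the 3 libraries in which the 61 CpGs of the block were also highest.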

How the data were processed

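Per the labels' protocols, DNA was cut with MspI and TaqI, bisulfite converted, amplified and sequenced as single-end reads. The submitters' processing notes name Bismark, Bowtie2 and mm9, with no versions. The deposited table gives methylated and unmethylated read counts and the methylation fraction of each CpG in each sample, per the file headers, and this fraction matched the ratio of the read counts within 5.55e-16. The lowest coverage in any library was 10 reads. How multiply mapping reads were handled is not given in the sources used here. It bears on every repeated locus.

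Members, groups and lists were chosen with earlier results of these data known. Members within 500 bp formed a locus. Loci were named by these rules: the 10 with the most members, the 10 with the highest median coverage, those of the called members with the largest differences (10 per direction for level, 5 for coverage), and those of the gene family lists.

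Levels were tested per CpG in a logistic model of quasi-binomial type over the 12 libraries (numpy 2.4.6), with the dispersion moderated by limma 3.58.1 within 4 classes of median coverage (limits 50, 100 and 150 reads), never below 1, and Benjamini-Hochberg adjustment over 760348 CpGs. In the class of 150 reads and over the median dispersion was 1.4. This class ran from 150 to 122407 reads and was moderated towards a common value. Its p values can therefore understate the spread between hosts at the most covered CpGs. A called difference also reached 20 points. Coverage was tested with edgeR 4.0.16 in R 4.3.3, with the library median as the normalization. On data simulated for Div8pos against Div0, the level test called 56 of 100 members changed by 30 points, with 1 call among 40992 unchanged CpGs. It called 1 of 100 changed by 15 points, a change under the limit of 20 points that could seldom be called. The coverage test called 83 of 100 with a fold of 2, 100 of 100 with a fold of 4 and 12 of 40992 unchanged. In both simulations the spread was a fixed value not fitted to the data, and the adjustment ran over 41192 CpGs. These counts therefore do not give the share of real changes that the tests find. Mean levels over members have no test.

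Per the labels, a host number marks 1 animal, so it pairs the libraries. Over the 15 pairs of fractions, deviations of same-numbered libraries from the fraction means correlated at -0.00688 to 0.00732 (69541 CpGs with a Div0 level above 20% and below 80%). Reads per CpG differed between the hosts of a fraction by more than counting noise (chi-square per degree of freedom from 1.22 to 3.34), and all 12 were kept as separate libraries.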

Additional observations from a re-analysis of the deposited data

How the results depend on the processing

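With a limit of 10 points the falls were 108 in Div8pos and 45 in Div8neg against Div0 and 10 in Div8pos against Div8neg, where 4 were then higher. With no size limit, chosen after seeing the data, they were 513, 100 and 225 lower, with 16 higher in Div8neg and 24 higher in Div8pos against Div8neg. With 1 dispersion over all CpGs 3 members were higher in Div8pos and 3 in Div5, and with a trend on coverage 3 and 2. With limma on percent levels 1 was lower in Div5 (chrX:166417010), and limma on coverage found 1 lower in Div8neg against Div0. Leaving out 1 library gave 16 to 24 falls in Div8pos, 6 to 8 in Div8neg, 0 to 3 lower in Div8pos than in Div8neg and 0 to 2 in Div5. Coverage calls then ran from 17 to 57 higher and 0 to 19 lower in Div8neg, 0 to 7 lower in Div8pos, 43 to 75 lower and 0 to 1 higher in Div8pos against Div8neg.

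Mean differences over members depended on the weighting. By summed reads, which weigh each CpG by its coverage, they were -10.96 points for Div8pos, -5.57 for Div8neg, -2.14 for Div5, -5.06 for Div3 and -4.69 for Div1 against Div0, and -5.39 for Div8pos against Div8neg. Such values also move with the share of reads that each group of CpGs takes in a library. With equal weight per locus they were -6.03, -3.35, -0.97 and -0.63 for Div8pos, Div8neg, Div5 and Div3. Div8pos against Div8neg was -2.23 with a limit of 100 reads and -3.88 with 300. Leaving out 1 library gave -5.45 to -3.79 for Div8pos, -2.27 to -1.26 for Div8neg, -3.68 to -2.02 between them, -0.63 to 0.25 for Div5, -0.12 to 0.20 for Div3 and -0.80 to 0.12 for Div1.

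The replicate block changed no count by more than 1.5 times, with 24 falls in Div8pos, except that 6 CpGs of the rDNA-like block rose in Div8neg, against 11 without it. Those rises were 44 with 1 dispersion and 3 with limma, and the cause was not tested. Depth limits the calls, and the lowest library median was 20 reads per CpG, in Div0 of host 196.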
